A study of Mus musculus with 9 samples.

Results

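VL30 elements are a family of mouse endogenous retroviruses, and this account covers the rows that the repeat table of the series holds for them: MMVL30-int and every row named RLTR6 with an optional letter and the ending _Mm or -int. Of the 1146 repeat subfamilies in the table, 5 met that rule: the internal sequence MMVL30-int, the long terminal repeats (LTRs) RLTR6_Mm, RLTR6B_Mm and RLTR6C_Mm, and a further internal sequence, RLTR6-int. All 5 passed the filter on low counts, as did 984 subfamilies in all, and the rule goes by name, not by value.

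A VL30 element has the layout of a retrovirus, an internal sequence between 2 LTRs, but lacks intact retroviral genes. Its RNA starts in one LTR, is known to be packaged into particles of murine leukaemia viruses, and is spread in that way between cells. VL30 LTRs are known to respond to growth factors and serum. Like other endogenous retroviruses, the elements are repressed by DNA methylation and by methylation of histone H3 at lysine 9. Uhrf1 binds DNA that is methylated on one strand after replication and recruits the maintenance methyltransferase Dnmt1 to it.

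The series measured RNA of satellite cells, which regenerate skeletal muscle, from hindlimb muscles of 9-week-old mice. The Mutant group, with Uhrf1 deficiency in satellite cells, received tamoxifen, in 150 µl of a 20 mg/ml solution injected on 5 days to induce recombination by Cre, and the Control group received oil. Cells of both groups were seeded at 5000 cells/cm2 and grown for 3 days on Matrigel in medium with fetal bovine serum before RNA was taken, and each group has 3 libraries. A further 3 libraries, Cre Control, from mice given tamoxifen, were not analysed here. The labels give no Cre driver, strain, sex or genotype of the Control mice, and they do not say whether each library is a different animal, so the p-values here speak of the spread among these libraries, which may be technical. Tamoxifen went with the mutation, so effects of the treatment and of Uhrf1 loss cannot be told apart.

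Repeat counts per library lay between 1794698 and 2245124. The library labelled Control 3 stood apart from Control 1 and Control 2: the intracisternal A particle (IAP) subfamilies made up 10.6%, 12.7% and 18.45% of repeat counts in Mutant 1, 2 and 3, against 0.80%, 0.99% and 14.95% in Control 1, 2 and 3. In a chi-square test over subfamilies it also differed less from each Mutant library (20.6 to 23.8 per degree of freedom) than from Control 1 (288) or Control 2 (331). The Mutant libraries differed from each other by 15.7 to 61.7, and Control 1 from Control 2 by 3.19. The levels, edgeR and DESeq2 tests, ratios and profiles of the VL30 rows are therefore given with and without Control 3. The authors' deposited gene table gave Uhrf1 a mean of 20.4 TPM, a level scaled for length and depth, in Mutant, against 118 TPM in Control. In the authors' deposited gene table its test estimate was −3.12 on the log2 scale (SE 0.60, adjusted p = 4.01e-06). The log2 ratio listed with the means was −2.47, so the means and the test estimate differ, and why was not tested. The level of Uhrf1 in single libraries was not analysed here. Of 9 satellite cell and myoblast markers the authors' deposited table called 2 higher (Pax7 and Des) and 4 lower (Myod1, Vcam1, Itga7 and Cdh15), beside 9.03% and 8.10% of all genes. Their levels in the authors' deposited table ran from 3.23 TPM (Cd34) to 914 TPM (Myod1) in Mutant and from 2.39 to 1018 TPM in Control, with Pax7 at 29.6 TPM in Mutant and 23.1 TPM in Control.

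VL30 levels were higher on average in Mutant than in Control, and whether the difference passed a test depended on the library labelled Control 3, on the scaling of the libraries and on the tool. MMVL30-int, RLTR6_Mm and RLTR6C_Mm stood above all Control libraries in every Mutant library, on average 2.2- to 2.7-fold over all Control libraries and 2.9- to 4.0-fold over Control 1 and Control 2. RLTR6-int and RLTR6B_Mm stood 1.5-fold and 1.3-fold above Control on average, with Control 3 above the lowest Mutant library at TMM scaling. With all 6 libraries and TMM scaling no VL30 row passed the threshold in edgeR's quasi-likelihood test, and without Control 3 all but RLTR6B_Mm rose. With the 6 libraries scaled by total repeat counts alone, which moved the median of all subfamilies to −0.20 (log2), edgeR called MMVL30-int (adjusted p = 0.00549), RLTR6_Mm (adjusted p = 0.00384) and RLTR6C_Mm (adjusted p = 0.00166) higher, among 6 subfamilies called (0.61%), 5 of them higher (0.508%). In bulk RNA, more cells with VL30 transcripts and more transcripts per cell cannot be told apart.

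The internal sequence MMVL30-int carried most of the VL30 counts, 86.8% to 89.1% of those of the 5 rows. It stood at 40765, 56243 and 52137 CPM (repeat counts scaled to library size by TMM factors) in Mutant 1, 2 and 3, against 16064, 18662 and 34422 CPM in Control 1, 2 and 3. The mean was 49715 ± 8019 CPM in Mutant and 23049 ± 9934 CPM in Control (SD, n = 3 each), or 17363 ± 1837 CPM over Control 1 and Control 2 (n = 2). The Mutant libraries lay above all Control libraries, by a factor of 1.18 from the lowest Mutant library to Control 3 and of 2.18 to the next highest Control library. Its share of all repeat counts was 4.06% in Mutant 1 (95% Wilson interval 4.04 to 4.09), 5.24% in Mutant 2 (5.21 to 5.27) and 4.58% in Mutant 3 (4.55 to 4.61), against 1.84% in Control 1 (1.82 to 1.86), 2.14% in Control 2 (2.12 to 2.16) and 3.21% in Control 3 (3.18 to 3.23). Such intervals hold for counting error alone, as reads amplified by PCR and without molecular identifiers do not stand for independent molecules. The gaps between the libraries of a group are many times wider than the intervals, so the spread between libraries, not depth, sets the precision.

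RLTR6_Mm is the LTR that flanks MMVL30-int and holds the promoter. It stood at 4460, 6336 and 5633 CPM in Mutant 1, 2 and 3, against 1101, 1660 and 3334 CPM in Control 1, 2 and 3. The order of the 6 libraries was that of the internal sequence: Mutant 2, Mutant 3, Mutant 1, Control 3, Control 2, Control 1. RLTR6C_Mm, a related LTR, was at 504, 704 and 680 CPM in the Mutant libraries, against 173, 169 and 388 CPM in the Control libraries. In this row Control 2 was 0.977 times Control 1, and Control 3 stood 2.27-fold above their mean.

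RLTR6-int, the other internal sequence, had 1048, 1412 and 1306 CPM in Mutant 1, 2 and 3, against 644, 738 and 1095 CPM in Control 1, 2 and 3. Here the groups overlapped, since Control 3 lay above Mutant 1. RLTR6B_Mm had the fewest counts of the 5 rows, with 108, 129 and 134 counts in the Mutant libraries, against 105, 107 and 109 counts in the Control libraries. As normalised levels these are 56.6, 71.7 and 68.2 CPM in Mutant, against 51.1, 41.5 and 57.8 CPM in Control. The groups overlapped in this row too, again through Control 3 and Mutant 1, and with libraries scaled by total repeat counts alone its log2 fold change was 0.20, against 0.40 with TMM factors. In every row Mutant 2 was the highest library and Mutant 3 the next.

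**Figure D1:**
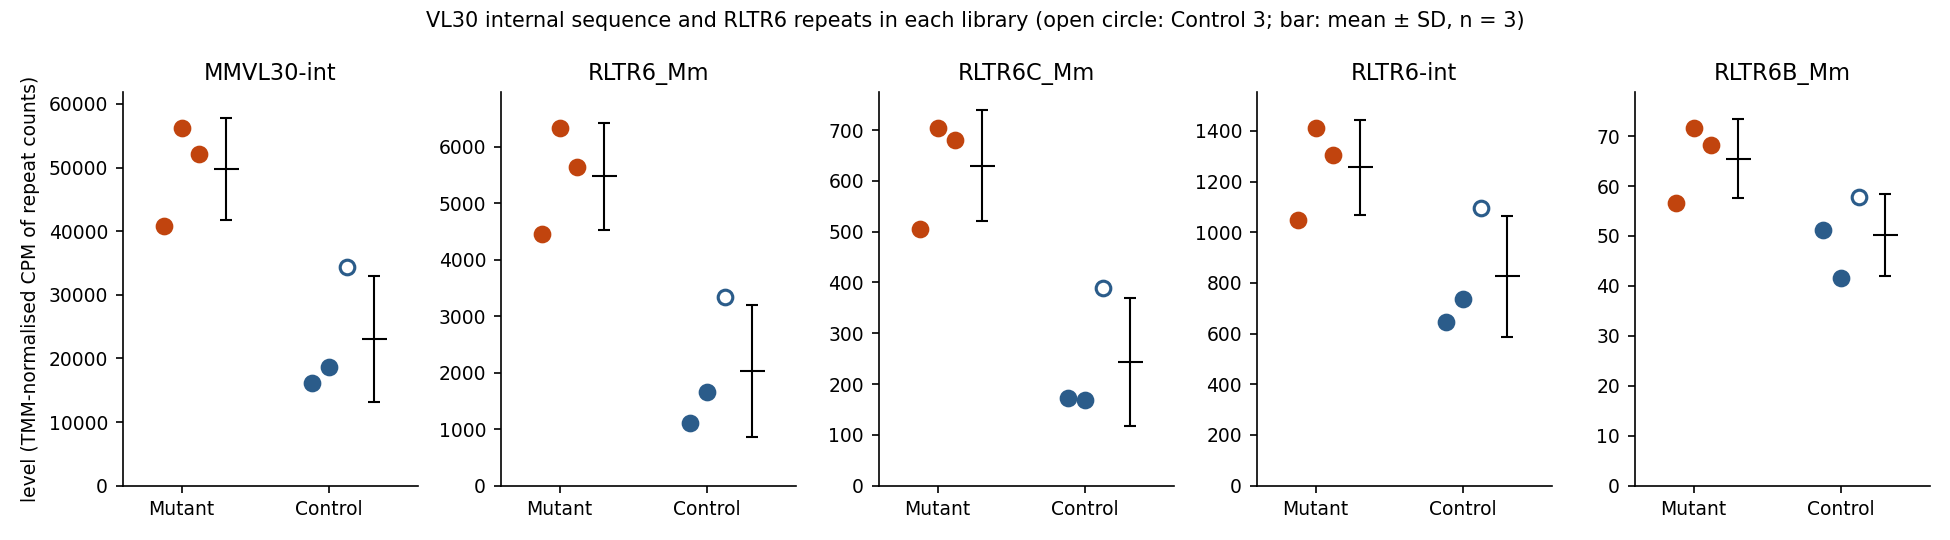
Level of each VL30 row (TMM-normalised CPM of repeat counts, vertical axes from 0) in 3 Mutant and 3 Control libraries, with Control 3 as an open circle and bars for the mean ± SD of 3 libraries. The Mutant libraries lie above every Control library for MMVL30-int, RLTR6_Mm and RLTR6C_Mm, and Control 3 lies above Mutant 1 for RLTR6-int and RLTR6B_Mm.

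Over all 984 subfamilies tested, 84 (8.54%) had every Mutant library above every Control library, and 3 of the 5 VL30 rows were among them. Against Control 1 and Control 2 alone, 210 subfamilies (21.3%) and all 5 VL30 rows were higher in each Mutant library.

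The test across all subfamilies gave MMVL30-int a log2 fold change of 1.11 (SE 0.27), Mutant over Control, with an adjusted p of 0.217 in edgeR's quasi-likelihood test on 6 libraries. RLTR6_Mm had 1.43 (SE 0.37, edgeR adjusted p = 0.218) and RLTR6C_Mm 1.38 (SE 0.32, edgeR adjusted p = 0.187). RLTR6-int had 0.61 (SE 0.20, edgeR adjusted p = 0.334) and RLTR6B_Mm 0.40 (SE 0.15, edgeR adjusted p = 0.419). No subfamily of the table passed in that fit (0 of 984, 0%), 111 had an unadjusted p below 0.05 in it, and all 5 VL30 rows were among the 65 of these (6.61% of those tested) that were higher in Mutant. By size of log2 fold change RLTR6_Mm ranked 2, RLTR6C_Mm 5 and MMVL30-int 11 of the 984, RLTR6-int 31 and RLTR6B_Mm 67. Without Control 3 these ranks were 8, 9, 11, 29 and 68 of 994. The median over all subfamilies was −0.0027. A log2 fold change of at least 1 was found in 11 subfamilies (1.12%) with 6 libraries and in 23 of 994 (2.31%) without Control 3, and MMVL30-int, RLTR6_Mm and RLTR6C_Mm were among them both times. DESeq2 on the same 6 libraries called 17 of the 713 subfamilies given an adjusted p (2.38%), 14 of them higher (1.96%), and of the VL30 rows it called RLTR6C_Mm (log2 fold change 1.37, SE 0.42, DESeq2 adjusted p = 0.0491) and not MMVL30-int (DESeq2 adjusted p = 0.094).

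Without Control 3 the same edgeR test called 4 of the 5 VL30 rows higher, where 73 of the 994 subfamilies tested (7.34%) were called and 69 (6.94%) were called higher. MMVL30-int rose with a log2 fold change of 1.52 (SE 0.11, edgeR adjusted p = 9.04e-06), RLTR6_Mm with 1.99 (SE 0.17, edgeR adjusted p = 3.3e-05) and RLTR6C_Mm with 1.88 (SE 0.13, edgeR adjusted p = 6.89e-06). RLTR6-int rose by less, 0.86 (SE 0.11, edgeR adjusted p = 0.00081). RLTR6B_Mm, at 0.51 (SE 0.16, edgeR adjusted p = 0.0857), did not pass. DESeq2 without Control 3 called the same 4 rows, among 61 of 1065 subfamilies (5.73%), 58 of them higher (5.45%). A further fit kept all 6 libraries but weighted each by how well it followed its group (limma voom with sample quality weights). Control 3 had the lowest weight, 0.513, and the weights of the others ran from 0.656 to 1.58. In that fit the same 4 rows rose, with log2 fold changes of 1.43 (SE 0.18, adjusted p = 0.00858) for MMVL30-int, 1.89 (SE 0.25, adjusted p = 0.00975) for RLTR6_Mm, 1.76 (SE 0.21, adjusted p = 0.00732) for RLTR6C_Mm and 0.82 (SE 0.15, adjusted p = 0.0271) for RLTR6-int, where 46 of 984 subfamilies (4.67%) were called, 39 of them higher (3.96%).

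**Figure D2:**
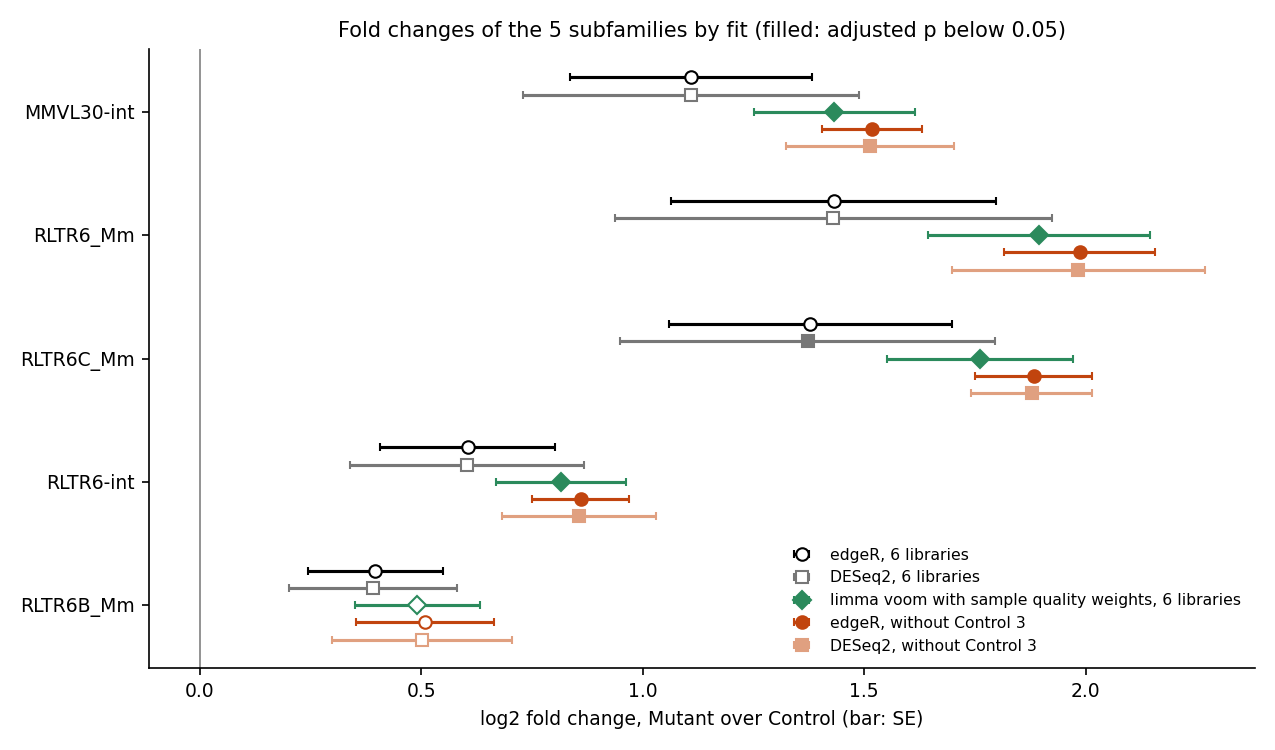
Log2 fold change of each VL30 row, Mutant over Control, with its standard error, in 5 fits; filled symbols mark an adjusted p below 0.05. All values lie above 0, and the fits that leave out or weight down Control 3 give larger changes with narrower errors than edgeR and DESeq2 on 6 libraries, except that the error of RLTR6B_Mm changes little.

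**Figure D3:**
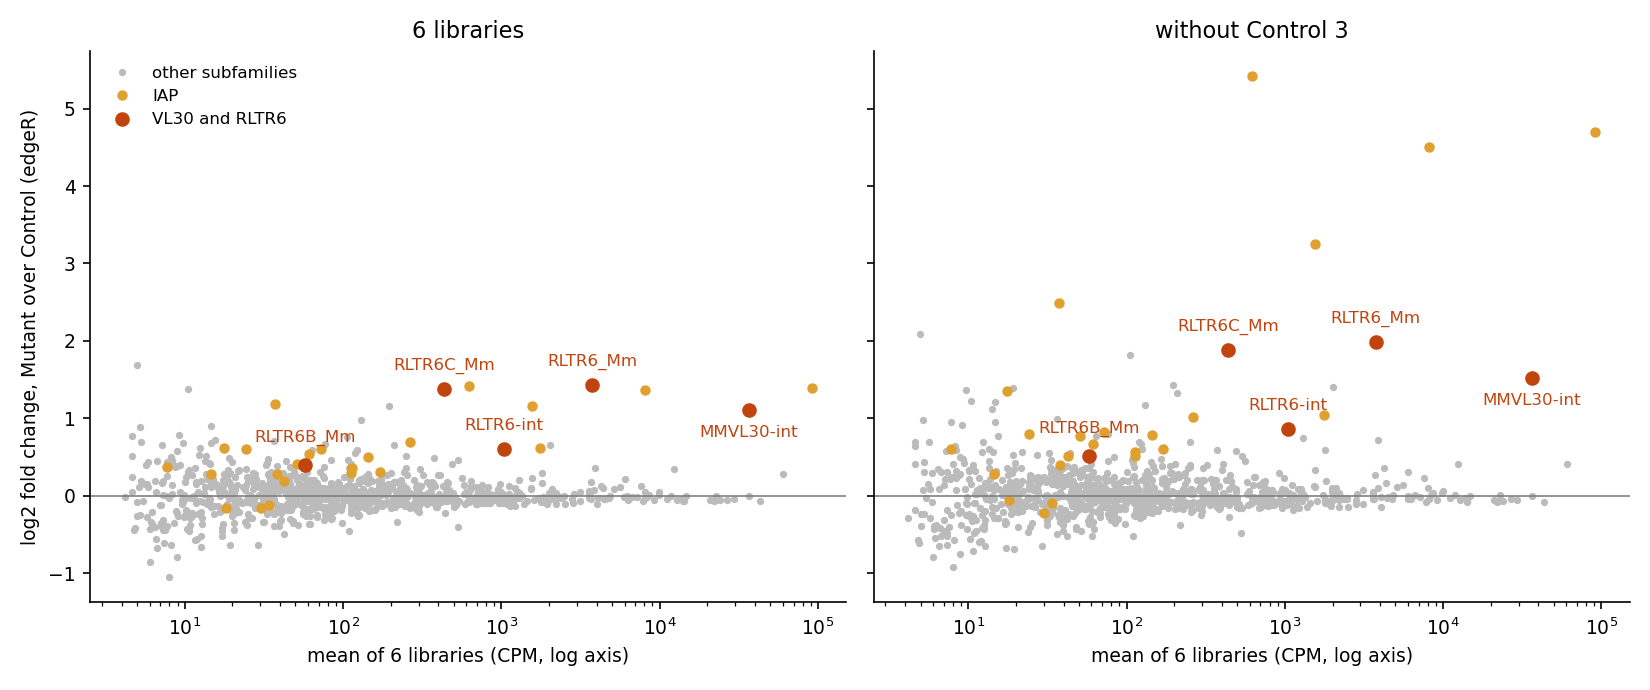
Log2 fold change (edgeR, Mutant over Control) of all 984 subfamilies against their mean level (CPM, log axis) with 6 libraries and without Control 3, with IAP subfamilies and the 5 VL30 rows in colour. The VL30 rows lie between 0.40 and 1.43 with 6 libraries and between 0.51 and 1.99 without Control 3, where IAPEz-int lies at 4.69.

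The authors' deposited repeat table gives log2 fold changes of 1.51 for MMVL30-int, 1.98 for RLTR6_Mm, 1.88 for RLTR6C_Mm, 0.86 for RLTR6-int and 0.50 for RLTR6B_Mm. In the authors' deposited table the first 4 have adjusted p of 1.99e-13, 3.29e-10, 3.22e-41 and 4.01e-05, RLTR6B_Mm has 0.153, and 63 of 1008 subfamilies (6.25%) are called, 60 of them higher (5.95%). These log2 fold changes match those of DESeq2 without Control 3: they were equal within 0.001 for 1090 of the 1093 subfamilies of the authors' deposited table, and the means within 0.1% for all 1093. With all 6 libraries 15 log2 fold changes were equal, and between 8 and 12 when any other library was left out. The authors' deposited repeat table thus matches a fit without the library labelled Control 3, and it is not independent of that fit.

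The proportions among the 5 rows did not overlap between the groups, although the exact permutation test used for them cannot pass 0.05 with 3 libraries against 3. Ratios of 2 rows within a library do not depend on how libraries are scaled, and each of the 4 ratios to MMVL30-int separated the groups. MMVL30-int itself had a higher share of repeat counts in every Mutant library. A row with an unchanged share, of VL30 or not, would therefore have a lower ratio in every Mutant library. The lower ratios of RLTR6-int and RLTR6B_Mm in Mutant are thus not read as particular to these rows. How many of all subfamilies separate the groups in this ratio was not counted. For 100 counts of MMVL30-int there were 10.9, 11.3 and 10.8 counts of RLTR6_Mm in Mutant 1, 2 and 3, against 6.85, 8.89 and 9.69 counts in Control 1, 2 and 3. Relative to the internal sequence, the LTR was thus counted more often in all Mutant libraries than in any Control library. RLTR6C_Mm had 1.24, 1.25 and 1.30 counts per 100 of MMVL30-int in Mutant, against 1.08, 0.904 and 1.13 in Control. RLTR6-int went the other way, with 2.57, 2.51 and 2.51 counts in Mutant, against 4.01, 3.95 and 3.18 in Control. RLTR6B_Mm had 0.139, 0.127 and 0.131 counts in Mutant, against 0.318, 0.222 and 0.168 in Control. Its own counts differed little (105 to 134 per library), so this ratio mostly follows the level of MMVL30-int.

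On the log2 scale the difference, Mutant minus Control, was 0.39 for RLTR6_Mm, 0.29 for RLTR6C_Mm, −0.55 for RLTR6-int and −0.79 for RLTR6B_Mm. Each gave p = 0.1 in a two-sided exact permutation test, the smallest that 3 libraries against 3 can give, or 0.12 adjusted over 6 ratios tested. The Mutant libraries were close to each other in these ratios, with SDs of 0.02 to 0.06 (log2), against 0.17 to 0.46 in Control. Without Control 3 the Control SD of the RLTR6-int ratio was 0.0145, below the 0.021 of Mutant, and those of the other 3 ratios ran from 0.18 to 0.37. Control 3 was the Control library nearest to Mutant in all 4 ratios and stayed outside the Mutant range in each. Without it the differences were 0.49, 0.36, −0.66 and −1.01, again with p = 0.1, the smallest that an exact permutation test of 3 against 2 allows. The sources used here do not give how reads were assigned at the junction of an LTR and the internal sequence, or among many copies. The rows come from the same kind of element, so they are not independent of each other.

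**Figure D4:**
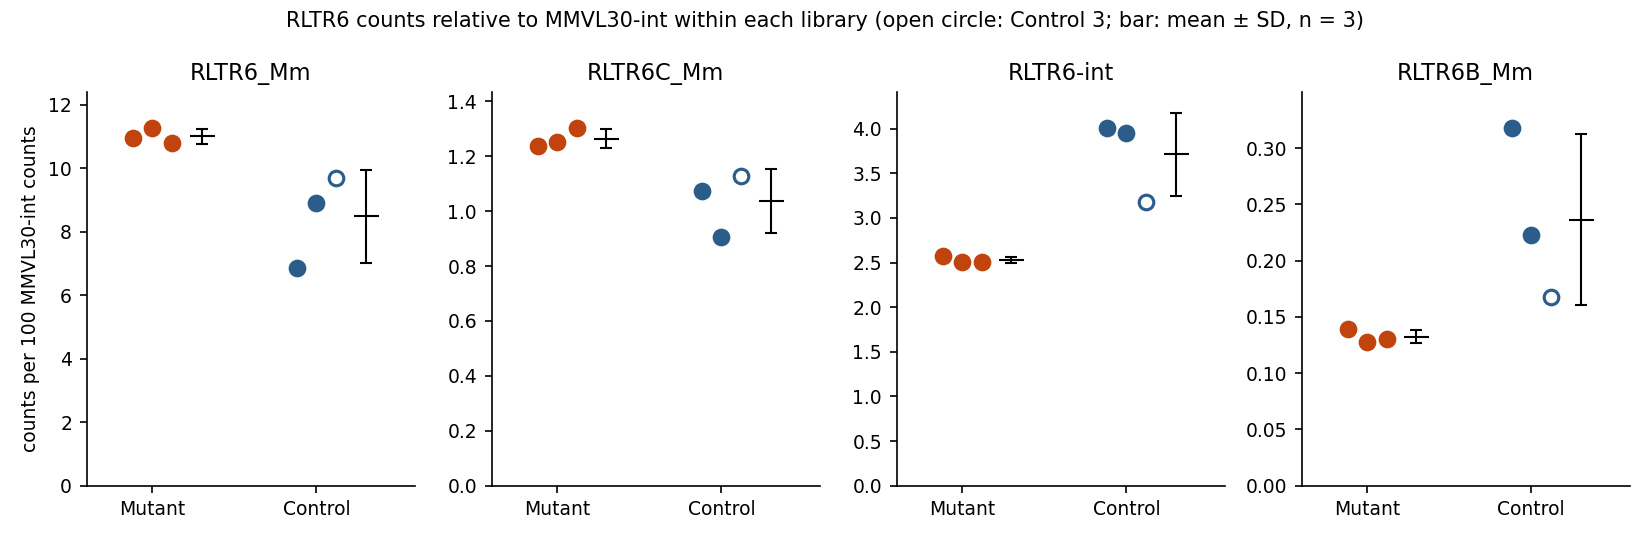
Counts of each RLTR6 row per 100 counts of MMVL30-int in the same library, for 3 Mutant and 3 Control libraries, with Control 3 as an open circle and bars for the mean ± SD of 3 libraries. The Mutant libraries sit close together, above all Control libraries for RLTR6_Mm and RLTR6C_Mm and below them for RLTR6-int and RLTR6B_Mm.

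The library labelled Control 3 lay between the other Control libraries and the Mutant mean in VL30 levels. On the log2 scale, from the mean of Control 1 and Control 2 to the Mutant mean, it stood at 65.1% of the distance for MMVL30-int, 64.0% for RLTR6_Mm, 63.0% for RLTR6C_Mm, 64.1% for RLTR6B_Mm and 77.1% for RLTR6-int. That place was not particular to VL30. RLTR1B, another LTR, put Control 3 at 60.4%, its internal sequence RLTR1B-int at 49.8%, and IAPLTR2_Mm, an IAP LTR, at 81.8%. Some other retroviral elements put Control 3 at or beyond the Mutant mean. IAPEz-int, the internal sequence of IAP elements, was at 93193, 119442 and 185414 CPM in Mutant 1, 2 and 3, against 4374, 5879 and 140924 CPM in Control 1, 2 and 3, which puts Control 3 at 102% of that distance. MMETn-int, of the ETn elements, and MuLV-int, the internal sequence of elements like murine leukaemia virus, were highest in Control 3 of all 6 libraries (165% each). Of the 69 subfamilies called higher without Control 3, 28 had each Mutant library above Control 3: 3 of the 4 VL30 rows, 2 of the 15 IAP subfamilies and 23 of the other 50. With 1 library, the difference between Mutant and Control 3 has no test.

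Counts of VL30 were also set against those of 2 other families within each library. For 1 count of IAPEz-int there were 0.437, 0.471 and 0.281 counts of MMVL30-int in Mutant 1, 2 and 3, against 3.67, 3.17 and 0.244 in Control 1, 2 and 3. Control 3 fell below every Mutant library here, so the groups overlapped. The log2 ratio differed by −1.87 between Mutant and Control (two-sided exact permutation p = 0.4, adjusted 0.4) and by −3.14 without Control 3 (exact permutation p = 0.1, the smallest possible). Against MuLV-int the direction was the opposite: there were 10.99, 11.7 and 10.7 counts of MMVL30-int per count of MuLV-int in Mutant, against 4.81, 5.18 and 6.56 in Control, with no overlap. That log2 ratio differed by 1.03 (exact permutation p = 0.1, adjusted 0.12), and by 1.16 without Control 3.

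In edgeR's test no comparator subfamily passed with 6 libraries, and MuLV-int had a log2 fold change of 0.36 (SE 0.10, edgeR adjusted p = 0.0495) without Control 3. RLTR1B had 0.55 (SE 0.13, edgeR adjusted p = 0.187) with 6 libraries and 0.70 (SE 0.10, edgeR adjusted p = 0.00185) without Control 3. DESeq2 on 6 libraries called RLTR1B (0.55, SE 0.14, DESeq2 adjusted p = 0.0118) and no other comparator. RLTR4_Mm and RLTR4_MM-int, the LTR and an internal sequence of murine leukaemia virus-like elements, had log2 fold changes of 0.29 (SE 0.22) and 0.36 (SE 0.26) with 6 libraries (edgeR adjusted p = 0.627 and 0.611), and of 0.59 (SE 0.11) and 0.72 (SE 0.13) without Control 3 (edgeR adjusted p = 0.00979 and 0.00515). MMERGLN-int, of another group of mouse retroviral elements, had 0.66 (SE 0.47, edgeR adjusted p = 0.61) and 1.41 (SE 0.23, edgeR adjusted p = 0.0037). IAPLTR1_Mm, an IAP LTR, had 1.37 (SE 1.15, edgeR adjusted p = 0.638) and, without Control 3, 4.51 (SE 0.27, edgeR adjusted p = 2.32e-06). MMETn-int had 0.21 (SE 0.32, edgeR adjusted p = 0.814) and 0.75 (SE 0.09, edgeR adjusted p = 0.000444). ETnERV-int, of a related element, was at 0.07 (SE 0.16, edgeR adjusted p = 0.869) and 0.30 (SE 0.07, edgeR adjusted p = 0.027).

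**Figure D5:**
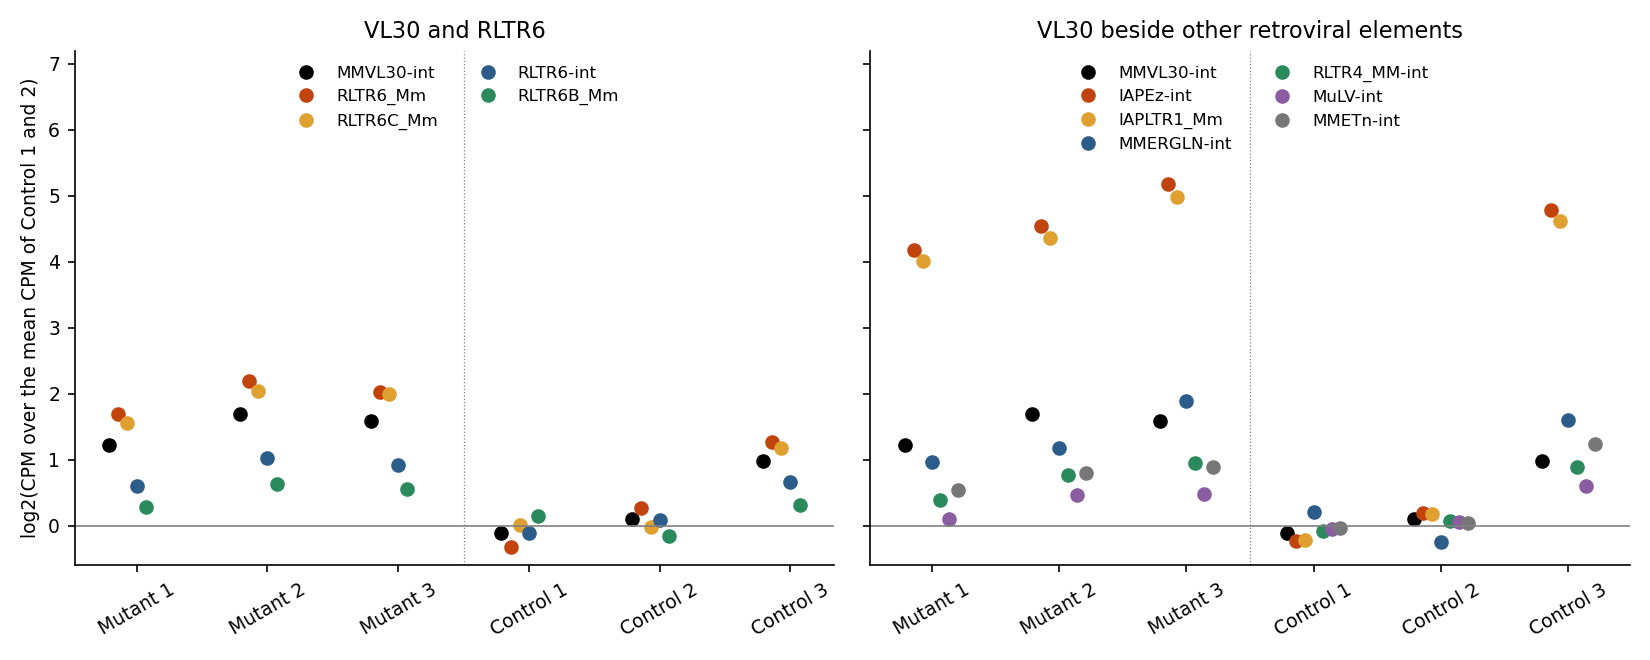
Log2 of each library's CPM over the mean CPM of Control 1 and Control 2, for the 5 VL30 rows and for MMVL30-int beside 6 rows of other retroviral elements, in 3 Mutant and 3 Control libraries. In Control 3, MMVL30-int, RLTR6_Mm and RLTR6C_Mm lie below each Mutant library, while MMETn-int and MuLV-int are highest in Control 3.

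The subfamilies whose profile was most like that of MMVL30-int were found by the root mean square difference of log2(CPM + 1) over the 6 libraries, after centring each row, among 906 others with a mean of at least 10 CPM. RLTR6C_Mm was nearest, at 0.175, RLTR6_Mm ranked 5 (0.247), RLTR6-int 7 (0.295) and RLTR6B_Mm 39 (0.480). Without Control 3 the nearest was RLTR1B-int, outside VL30, and RLTR6C_Mm ranked 2, RLTR6_Mm 9, RLTR6-int 12 and RLTR6B_Mm 45. Outside VL30 the nearest 6 were RLTR1B-int (0.194), MER88 (0.195), RLTR13D3 (0.214), IAPLTR2_Mm (0.291), IAPEY4_I-int (0.295) and LTR105_Mam (0.320). RLTR1B-int was at 253, 284 and 274 CPM in Mutant 1, 2 and 3, against 111, 91.2 and 165 CPM in Control 1, 2 and 3, with no overlap between the groups. Its LTR, RLTR1B, likewise had each Mutant library above each Control library, with a Mutant mean 1.46 times the Control mean. MER88 and LTR105_Mam had 14 to 44 counts in any library, so their profiles are imprecise. Without Control 3, 3 of these 6 were again among the 6 nearest, namely RLTR1B-int, RLTR13D3 and MER88. IAPEz-int was the row least like MMVL30-int but one, at 1.59.

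Genes known to silence such elements were mostly lower in Mutant. By the authors' deposited gene table, 13 of the 20 genes listed for the silencing of retroviral elements fell and 1 rose, beside 8.10% of all 22631 genes that fell and 9.03% that rose, 17.1% together. These shares count genes of any level, while the listed genes ran from 1.42 to 292 TPM in Mutant. Shares among genes of like level were not counted. The 13 include Uhrf1 itself, whose deficiency defines the Mutant group, so its fall was set by the design. Uhrf1 is counted in the median of the list as well. The median listed log2 ratio was −0.26 over the list and 0.013 over all genes of the authors' deposited table. The ratios listed for the named genes match TPM with 1 added to either mean, which draws genes of low TPM towards 0. The authors' deposited table gave Dnmt1 94.3 TPM in Mutant, against 122 TPM in Control (test estimate −0.37, SE 0.06, adjusted p = 3.2e-09). Trim28, the corepressor that zinc finger proteins bring to retroviral sequences, fell to 292 TPM in Mutant, against 360 TPM in Control, by the authors' deposited table (−0.32, SE 0.05, adjusted p = 4.61e-08). For Setdb1, the histone methyltransferase that Trim28 recruits, the authors' deposited table listed 33.1 TPM in Mutant and 39.2 TPM in Control (−0.29, SE 0.08, adjusted p = 0.00129). Zfp809, a zinc finger protein known to target retroviral elements through their primer binding site, did not pass in the authors' deposited table, with 21.1 TPM in Mutant and 18.5 TPM in Control (0.25, SE 0.15, adjusted p = 0.315). The other members that fell were the chromatin remodeller Hells and its partner Cdca7, the heterochromatin proteins Cbx1, Cbx3 and Cbx5, the histone methyltransferase Suv39h1, the DNA methyltransferase Dnmt3a, Morc2a and Pphln1. Their estimates from the authors' deposited table ran from −0.25 (Pphln1) to −0.55 (Cdca7). The member that rose was 2810474O19Rik, named Resf1 in the annotation, for which the authors' deposited table listed 58.65 TPM in Mutant and 49.7 TPM in Control (0.21, SE 0.06, adjusted p = 0.00344).

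Of 17 transcription factors of the growth factor and serum response, the authors' deposited table called 4 higher and 2 lower, where 9.03% and 8.10% of all genes were. Junb, a subunit of AP-1, rose to 152 TPM in Mutant, against 120 TPM in Control (authors' deposited table: 0.33, SE 0.08, adjusted p = 0.00023). The other members that the authors' deposited table called higher were the AP-1 subunit genes Fosl2 (0.29, SE 0.07) and Jund (0.33, SE 0.11), and Rela (0.31, SE 0.09), which encodes a subunit of NF-κB. Srf (−0.25, SE 0.07), the serum response factor, and Hif1a (−0.26, SE 0.06), of the hypoxia response, were called lower by the authors' deposited table. Sfpq, known to bind VL30 RNA, fell to 255 TPM in Mutant, against 332.5 TPM in Control (authors' deposited table: −0.40, SE 0.05). Nono, its partner, was listed by the authors' deposited table at 289 TPM in Mutant and 346 TPM in Control (−0.24, SE 0.05), and Pspc1, a related protein that did not pass, at 32.0 TPM in Mutant and 34.1 TPM in Control (adjusted p = 0.0653).

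Markers of leukocytes moved between the groups as well. The authors' deposited table called 2 of 6 macrophage and leukocyte markers higher and 0 lower, beside 9.03% and 8.10% of all genes. Those called were Laptm5 (84.8 TPM in Mutant, 25.1 TPM in Control) and Cd68 (6.27 and 3.46 TPM), and Fcer1g, at 19.3 TPM in Mutant and 3.23 TPM in Control in the authors' deposited table, did not pass (adjusted p = 0.203). Their levels in the authors' deposited table ran from 0.303 to 84.8 TPM in Mutant and from 0.156 to 25.1 TPM in Control, summing to 112 TPM in Mutant and 32.5 TPM in Control. The defining markers Ptprc (0.303 TPM in Mutant, 0.381 TPM in Control), Lyz2 (0.608 and 0.197 TPM) and Csf1r (0.430 and 0.156 TPM) were near 0 in the authors' deposited table, and the part of these cells in the VL30 result was not tested. Of 5 endothelial markers the authors' deposited table called 1 higher and 2 lower, and of 5 fibroblast markers it called 0, to be read against the same shares of all genes. For 99.9% of 3254 genes with means of 20 to 60 TPM in the authors' deposited table, 3 times the Control mean was a whole number at 4 decimals, as for a mean of 3 values, and for 2 times the Control mean that share was 34.0%. Which libraries entered the authors' gene test is not stated in the labels.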

How the data were processed

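The deposited repeat table holds counts, as whole numbers for each subfamily, of 3 Mutant and 3 Control libraries. Their header names stand 1 cell to the left of the values and were read so. Per the submitters' processing notes, Trim Galore 0.6.6, STAR 2.7.6a, featureCounts 2.0.1, DESeq2 and the builds GRCm38 and mm10 were used, with no role or order. Repeat annotation, strand setting and treatment of multi-mapping reads are not given in the sources used here. Per the labels' protocols, RNA was depleted of ribosomal RNA and sequenced as strand-specific paired reads. Per the file headers, the authors' repeat comparison lists mean signal (normalised counts), log2 fold changes, score statistics and p-values. Per the file headers, the authors' gene comparison lists mean TPM for either group with log2 ratio, standard error, statistic and p-values. The product of its statistic and standard error is called the test estimate, which can differ from the listed log2 ratio.

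Counts were tested with edgeR 4.0.16 (R 4.3.3): filterByExpr, TMM factors, quasi-likelihood fit on all subfamilies, Benjamini-Hochberg adjustment, threshold 0.05. SE is the log2 fold change divided by the root of the F statistic. Alternatives were DESeq2 1.42.0, limma 3.58.1, other scaling, no filter, each library left out and a replicate block. The fit was tested on simulated data. Named were all VL30 rows, the 6 nearest profiles, fixed comparators, and listed genes that passed, with Uhrf1, Dnmt1, Trim28, Setdb1 and Zfp809. Members, lists and tests were chosen with earlier results of these data known. All 20 silencing genes, 17 growth factor response genes and 3 VL30 RNA-binding genes were found, 2 by gene ID. CPM are shares of repeat counts, not of all RNA. A gene table of arms named PT and PUT was not used, since no label names these arms. No 2 libraries agreed within sampling noise (chi-square per degree of freedom at least 3.185). That lowest value was for Control 1 against Control 2, and the next was 15.73, for Mutant 1 against Mutant 2.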

Additional observations from a re-analysis of the deposited data

How the results depend on the processing

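All 5 VL30 rows had positive log2 fold changes in each of the 15 alternatives run. Leaving out 1 library in turn gave 0.91 to 1.52 for MMVL30-int, 1.13 to 1.99 for RLTR6_Mm, 0.46 to 0.86 for RLTR6-int, 0.27 to 0.51 for RLTR6B_Mm and 1.17 to 1.88 for RLTR6C_Mm, and 0 to 73 subfamilies called. Control 3 alone gave calls when left out, 73 subfamilies with 4 VL30 rows among them; without it DESeq2 called 61 and edgeR with TMM factors computed without IAP 73. These 2 fits gave 1.51 and 1.52 for MMVL30-int, 1.98 and 1.99 for RLTR6_Mm, 0.86 and 0.87 for RLTR6-int, and 1.88 and 1.89 for RLTR6C_Mm. On 6 libraries DESeq2 called 17 subfamilies, with RLTR6C_Mm at 1.37; limma voom with quality weights called 46, with 1.43, 1.89, 0.82 and 1.76 for MMVL30-int, RLTR6_Mm, RLTR6-int and RLTR6C_Mm. Scaling by total repeat counts alone moved the median of all subfamilies to −0.20 (log2) and called 6, with MMVL30-int at 0.95, RLTR6_Mm at 1.29 and RLTR6C_Mm at 1.22 past the threshold. DESeq2 size factors, TMM factors without IAP and no filter on low counts called 0 subfamilies in edgeR on 6 libraries. For the 2 fits on 6 libraries that gained calls through scaling or weights, the cause was not tested. With the replicate number as a replicate block edgeR also called 0, with 1.18 for MMVL30-int; deviations of same-numbered libraries correlated at 0.287, 0.071 and 0.279, so the numbers were not taken to pair the libraries. The within-library ratios kept their direction whichever library was left out, and their exact permutation test cannot pass 0.05 with this number of libraries. Depth limits RLTR6B_Mm most among the VL30 rows, with 105 to 134 counts per library. RLTR6C_Mm follows, with 355 counts in Control 1 and 435 in Control 2.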
